A study of Mus musculus with 6 samples.

Results

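Transcripts of the NF-kB transcription factor subunits and of the proteins that restrain them were followed in 6 mouse livers. The group, chosen with earlier results of these data known, comprises Nfkb1, Nfkb2, Rela, Relb, Nfkbia, Nfkbib, Nfkbiz, Tnfaip3 and Bcl3. Of these 9 genes, 8 are among the 8390 genes of the table, and Relb is not listed, so nothing is known here of its level. All 8 passed the filter on low values. The livers came from C57BL/6 mice. The LV group comprised 3 mice that were given 3e8 transducing units of a lentiviral vector into a vein, with the liver removed 4 h afterwards, and the other 3 mice had no treatment. The labels give no sex, age, promoter or transgene, and no group injected with vehicle is among the samples, so vector and injection cannot be told apart. The title of the series names the innate response of liver to lentiviruses as its subject.

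NF-kB is a family of dimeric transcription factors that drives inflammatory and survival genes. In resting cells the inhibitors of the IkB family hold the dimers in the cytoplasm. Toll-like receptors, the tumour necrosis factor receptor and the interleukin 1 receptor activate the IkB kinase complex, which marks IkB for destruction and frees the dimers. Several genes switched on in this way encode the brakes of the pathway, and in liver both hepatocytes and Kupffer cells, the resident macrophages, can respond.

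The promoter sequences of this feedback group are shown because several hold the kappaB motif, the DNA element that NF-kB dimers bind. The RefSeq promoter table (GRCm38, from 250 bases before to 50 bases after an annotated start) had an entry for 6 of the 9 genes. The motif searched on both strands was the kappaB consensus: 3 guanines, a purine, any base, A or T, 2 pyrimidines and 2 cytosines. It was found in windows of Nfkb2, Nfkbia, Tnfaip3 and Bcl3, and not in those of Rela and Nfkbib. Of all 32851 promoter windows of that length, 4.51% held it. Counted by gene over any of its windows, as for the group, it was held by 5.14% of the genes with an entry. Among tested genes with an entry the share was 6.47%. In the lines that follow, each sequence runs 5′ to 3′ on the gene's strand and capitals mark the consensus matches. For Nfkb2, which has several annotated starts, the start with most matches before it is shown.
Nfkb2, chr19:46304607-46304736, plus strand, bases -130 to -1: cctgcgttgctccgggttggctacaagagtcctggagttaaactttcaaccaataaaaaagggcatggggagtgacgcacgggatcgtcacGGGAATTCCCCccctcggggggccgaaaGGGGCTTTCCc
Nfkbia, chr12:55492648-55492777, minus strand, bases -130 to -1: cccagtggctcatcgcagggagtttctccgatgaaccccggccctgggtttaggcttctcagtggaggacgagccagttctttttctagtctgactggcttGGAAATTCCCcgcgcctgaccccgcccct
Tnfaip3, chr10:19015411-19015540, minus strand, bases -130 to -1: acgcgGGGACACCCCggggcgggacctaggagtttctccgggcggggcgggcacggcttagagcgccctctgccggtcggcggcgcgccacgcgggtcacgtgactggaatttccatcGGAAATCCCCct
Bcl3, chr7:19822744-19822773, minus strand, bases -18 to 12: ttcagttcagtcggcggcagGGGAAGTCCC

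The first block of capitals in Nfkb2 holds overlapping matches, at -39 to -30 and at -38 to -29, and a further match lies at -11 to -2. The single match of Nfkbia lies at -29 to -20, those of Tnfaip3 at -125 to -116 and at -12 to -3, and that of Bcl3 at 3 to 12, just past the annotated start. A tighter form, GGGNNTTTCC, was found in windows of Nfkb2, Nfkbia and Tnfaip3 and in 1.63% of all windows, or 1.89% of genes with an entry. It overlaps the consensus. A match is only a string of letters in a window, and binding was not measured.

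After the vector, the transcripts of 5 of the 8 genes rose: the subunit genes Nfkb1 and Nfkb2, the nuclear IkB genes Bcl3 and Nfkbiz, and Tnfaip3, which encodes a ubiquitin-editing brake. Rela, Nfkbib and Nfkbia did not pass the test, and 0 of the 8 fell. In the fit over all genes, 3.76% of 8386 tested genes were called higher and 0.87% lower. A gene was called where limma, fitted to log2 of the deposited score plus 1, gave it a p below 0.05 after Benjamini-Hochberg adjustment over all tested genes. The deposited score is a whole number that appears to be scaled and rounded, its unit is not named, and read depth is unknown. For 7 of the 8 genes every LV value lay above every untreated value, which was true of 8.65% of tested genes. The median log2 fold change of the 8 genes was 1.19, against -0.07 over all tested genes. Among the 6151 genes whose mean score lay within the range of the 8 (3.33 to 39.3), 3.67% were called higher. The replicates are described only by their titles and were read as separate mice. Each p measures the spread between these libraries, which may be technical where that reading is wrong.

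**Figure D1:**
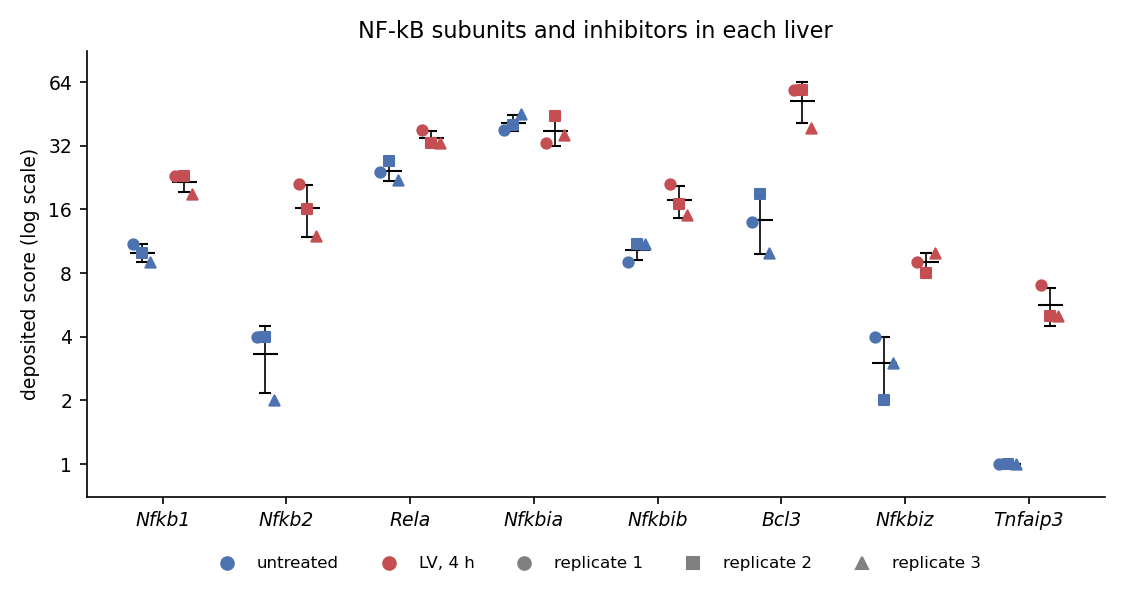
Deposited score (log axis) of 8 NF-kB subunit and inhibitor genes in each of 3 untreated (blue) and 3 LV (red) livers, with the group mean (dash) and SD (bar). Only for Nfkbia do the groups overlap, and Nfkb2 goes from 2 to 4 in untreated livers to 12 to 21 in LV livers.

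Nfkb1 and Nfkb2 encode long precursors that hold the dimers back until they are processed to the short DNA-binding subunits, so each is both subunit and inhibitor. Nfkb1 had scores of 23, 23 and 19 in the LV livers and 11, 10 and 9 in the untreated ones. The LV values were all above the untreated ones, with a gap of 8 between the groups. The means were 21.7 ± 2.31 and 10 ± 1 (SD, n = 3), a ratio of 2.17 on the linear scale, and the log2 fold change was 1.04 ± 0.12 SE (limma adjusted p = 0.00987). Without LV replicate 1 the adjusted p was 0.0602, and without LV replicate 2 it was 0.0661.

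Nfkb2 had the highest log2 fold change of the 8 genes at a pseudocount of 1, while at a pseudocount of 0.1 it had 2.29 and Tnfaip3 had 2.37. Its scores were 21, 16 and 12 after the vector and 4, 4 and 2 without it. Every LV liver stood above every untreated liver, and the 3 LV livers differed among themselves more than for Nfkb1. The means were 16.3 ± 4.51 and 3.33 ± 1.15 (SD, n = 3), a linear ratio of 4.90, which the rounding of scores to whole numbers leaves between 4.13 and 5.94. The log2 fold change was 2.01 ± 0.29 SE (limma adjusted p = 0.0233). The call depended on single libraries: the adjusted p was 0.0871 without LV replicate 1, 0.12 without LV replicate 2, and 0.0808, 0.0706 and 0.0626 without untreated replicates 1, 2 and 3.

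Rela encodes the main transactivating subunit, which is regulated largely by its location in the cell. It had 38, 33 and 33 in LV livers against 24, 27 and 22 in untreated livers. The groups did not overlap, but the log2 fold change was the smallest of the 7 positive ones. The log2 fold change of 0.50 ± 0.11 SE did not pass (limma adjusted p = 0.0773; 95% interval 0.22 to 0.77). It passed under 1 of 17 alternative settings, scaling by the median of ratios (adjusted p = 0.0428).

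The classical cytoplasmic inhibitors were not called. Nfkbia, which encodes the best known feedback inhibitor of NF-kB and carries the promoter match printed above, had 33, 44 and 36 after the vector and 38, 40 and 45 in untreated livers. These values overlapped, with means of 37.7 ± 5.69 and 41 ± 3.61 (SD, n = 3). The log2 fold change was -0.13 ± 0.13 SE (limma adjusted p = 0.638), and its 95% interval of -0.46 to 0.21 does not reach the estimate of any of the other 7 genes. This interval does not show that Nfkbia was the same in both groups, and only the 4 h time point was sampled. Nfkbib encodes a second cytoplasmic IkB. It had 21, 17 and 15 against 9, 11 and 11, with no overlap. Its log2 fold change of 0.71 ± 0.15 SE missed the threshold (limma adjusted p = 0.0734; 95% interval 0.33 to 1.09). It passed when only genes with a mean of at least 5 were tested (adjusted p = 0.0498) and with scaling by the median of ratios (0.0422).

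The nuclear IkB genes rose. Bcl3 encodes a protein that binds dimers of the short subunits in the nucleus and can activate or repress their targets. It had the highest LV values of the 8 genes, with 59, 59 and 39, and 14, 19 and 10 in untreated livers. Even the lowest LV liver stood 20 score units above the highest untreated one. The mean went from 14.3 ± 4.51 to 52.3 ± 11.5 (SD, n = 3), a linear ratio of 3.65, and the log2 fold change was 1.82 ± 0.28 SE (limma adjusted p = 0.0284). That call was lost when LV replicate 1 (adjusted p = 0.128) or 2 (0.133) was left out, and likewise for untreated replicate 1 (0.12) or 3 (0.0862).

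Nfkbiz encodes a nuclear IkB protein that helps switch on secondary response genes such as Lcn2. Its scores were low, with 9, 8 and 10 after the vector and 4, 2 and 3 without it. The groups were apart by 4 score units, and LV replicate 3 was the highest of the LV livers for this gene. The log2 fold change was 1.35 ± 0.21 SE (limma adjusted p = 0.0284). The linear ratio of 3.00 lay between 2.43 and 3.80 once rounding was allowed for. Its adjusted p was 0.121, 0.109 and 0.0763 without LV replicates 1, 2 and 3 and 0.117 without untreated replicate 3.

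Tnfaip3 encodes an enzyme that edits ubiquitin chains on signalling adaptors and so shuts off the IkB kinases. It had 7, 5 and 5 in LV livers and 1 in each untreated liver. Every LV value was thus at least 4 units above the untreated ones. The log2 fold change was 1.72 ± 0.13 SE (limma adjusted p = 0.0023). The call held when any single library was left out, with adjusted p between 0.00179 and 0.0268. The lowest came without LV replicate 1, where the remaining scores were tied within each group and the SE was 0.034. The 3 untreated livers have the same rounded score for Tnfaip3, so their spread is unknown. These p-values rest in part on such ties. A linear ratio of 5.67 could lie anywhere from 3.44 to 12.3 within that rounding. The mean score of Tnfaip3 exceeded that of only 8.43% of the listed genes, whereas that of Nfkbia exceeded 81.7%.

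**Figure D2:**
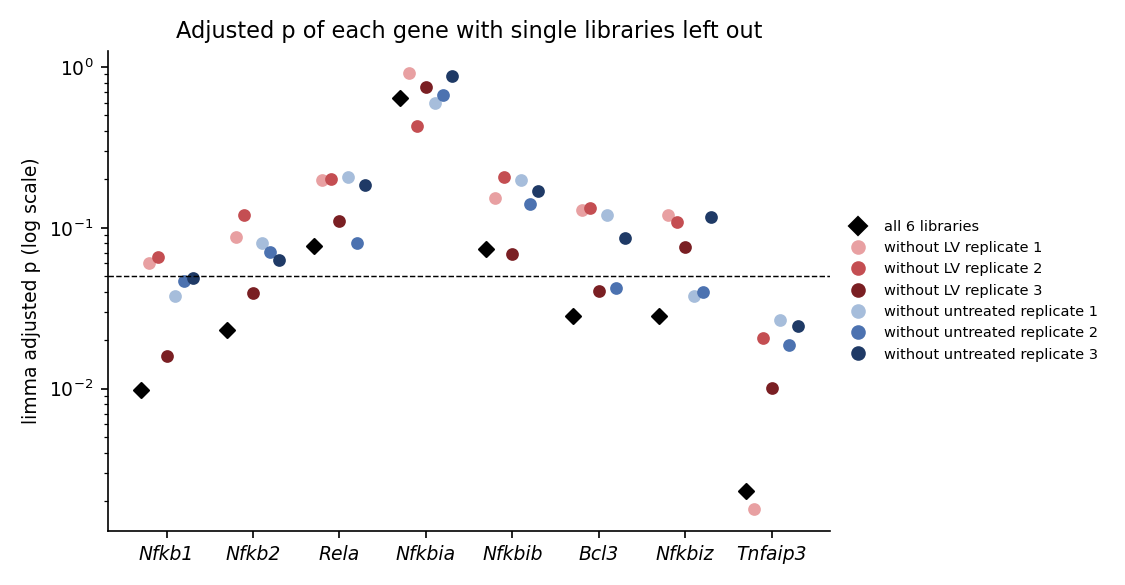
limma adjusted p (log axis) of each gene with all 6 libraries (black diamond) and with each library left out (circles), the dashed line marking 0.05. Tnfaip3 stays under the line throughout, Nfkb1 crosses it without LV replicate 1 or 2, and Nfkbia lies far above it.

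The 3 LV livers were ordered alike in some of the genes and not in others. LV replicate 3 had the lowest LV score in 4 of the 8 genes alone (Nfkb1, Nfkb2, Nfkbib and Bcl3) and in 6 when ties are counted. LV replicate 1 had the highest in 6, ties counted. By contrast, Nfkbiz was highest in LV replicate 3 and Nfkbia was lowest in LV replicate 1. The share of all tested genes with such an order was not computed, so these counts are description only. Isg15, an interferon-stimulated gene outside this group, had 1452, 1058 and 652 in LV replicates 1, 2 and 3. LV replicate 3 and untreated replicate 2 also stood apart from the other libraries in male-biased liver genes: Elovl3 had 169 and 159 there and at most 4 elsewhere. Without these 2 libraries all 5 called genes kept a positive log2 fold change, from 1.09 for Nfkbiz to 2.32 for Nfkb2, and 1 of them, Bcl3, remained called. Tnfaip3 then had an adjusted p of 0.0552 and Nfkb1 of 0.0604. The part of the male-biased genes in these results was not tested.

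Ratios between genes were added after the data had been seen. Ratios taken within each library do not change when a whole library is multiplied by a constant. The Nfkb1/Nfkbia ratio was 0.697, 0.523 and 0.528 in LV livers and 0.289, 0.25 and 0.2 in untreated livers. The mean ratio was 0.582 ± 0.0992 against 0.246 ± 0.0448 (SD, n = 3). Thus the lowest LV liver was above the highest untreated one. The Bcl3/Nfkbia ratio was 1.40 ± 0.356 against 0.355 ± 0.127, so the score of Bcl3 was below that of Nfkbia in each untreated liver and above it in each LV liver. Whether the transcript levels cross in the same way depends on the unknown scaling of the score. The Rela/Nfkbia ratio was 0.939 ± 0.202 against 0.598 ± 0.0974, with the nearest livers at 0.75 and 0.675. Between the precursor genes, Nfkb2/Nfkb1 was 0.747 ± 0.148 in LV and 0.329 ± 0.0939 in untreated livers, a log2 difference of 1.21. For all 10 ratios computed, the 2 groups did not overlap. Most of these ratios divide a gene whose groups were already apart by the same gene, Nfkbia, so they are not independent results. The share of other gene pairs that separate the groups was not computed. The two-sided exact permutation p was 0.1 for each (0.1 also after Benjamini-Hochberg adjustment), which is the smallest value that 3 livers against 3 allow, so none could pass 0.05.

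**Figure D3:**
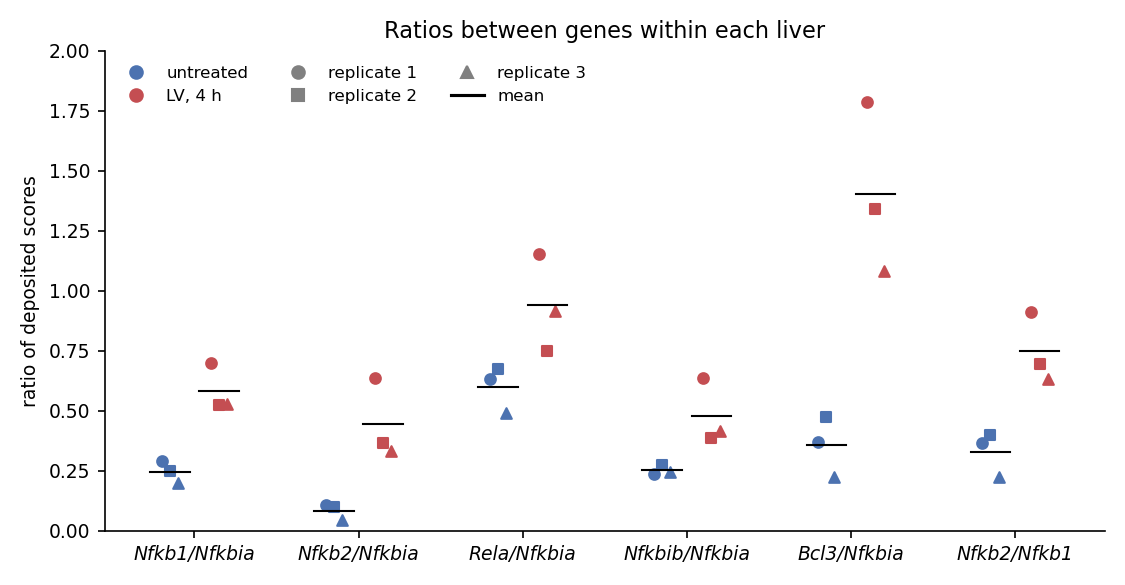
Ratio of deposited scores between pairs of genes in each untreated (blue) and LV (red) liver, with the group mean as a line. Each pair of groups is separate, and the Bcl3/Nfkbia ratio lies between 0.222 and 0.475 in untreated livers and between 1.08 and 1.79 in LV livers.

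Genes with the most similar pattern were sought by the Euclidean distance between log2(score + 1) values centred on each gene's mean over the 6 libraries, leaving out genes whose mean score was under 5. Nearest to Nfkb1 were Tmem184b (distance 0.112), H2-Q8 (0.172) and Vwa5a (0.202). H2-Q8 has close paralogs that can share reads. Nearest to Nfkb2 were Ikbke, an IkB kinase relative (0.289), Slc11a2, a metal transporter (0.386), and Trafd1 (0.428). Rhbdf2 (0.336), Stoml1 (0.464) and Clec2d (0.475) were nearest to Nfkbiz. Rxrg (0.304), Rnf31, a subunit of the linear ubiquitin ligase (0.306), and Hp, the acute-phase protein haptoglobin (0.329), were nearest to Tnfaip3. Tor1aip1 (0.333), 1110018G07Rik (0.369) and G3bp2 (0.383) were nearest to Bcl3.

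Around these genes, the rest of the pathway changed in part. Of 7 further family genes written down, 3 were listed and 0 passed by limma (0 also at an unadjusted p under 0.05). They were Nfkbil1 (log2 fold change -0.06), Nkiras1 (0.01) and Nkiras2 (-0.26). Rel and Nfkbie are not in the table. Of 9 listed receptors, 2 were higher and 0 lower (median 0.63). These were Tlr2 (4.38 ± 0.27 SE), a receptor for lipoproteins, and Tlr3 (2.72 ± 0.18), a receptor for double-stranded RNA. Il1r1, a receptor for interleukin 1, had 31, 45 and 23 after the vector against 7, 14 and 11 without passing (limma adjusted p = 0.0734), nor did the tumour necrosis factor receptor Tnfrsf1a (log2 fold change 0.63, adjusted p = 0.0734), Tnfrsf21 (0.74) or Tlr5 (-0.71). Without LV replicate 3, 4 receptors were called higher.

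Of 35 listed adaptors, ubiquitin ligases and kinases, 7 were higher and 1 lower (median log2 fold change 0.23). Those higher were the adaptor Myd88 (1.88 ± 0.25 SE), the kinases Ikbke (1.84 ± 0.29) and Tbk1 (1.48 ± 0.16), the Tbk1 partner Azi2 (0.75 ± 0.12), the ligase subunit Rnf31 (1.62 ± 0.17), and the ligases Birc2 (1.16 ± 0.17) and Birc3 (0.67 ± 0.12). The adaptor Tradd was lower (-0.46 ± 0.08). The genes of the IkB kinase complex itself, picked out after their values were seen, did not pass: Chuk had a log2 fold change of -0.09, Ikbkb of 0.07 and Ikbkg of 0.55 (adjusted p = 0.753, 0.813 and 0.367). With LV replicates 1, 2 and 3 left out singly, 3, 0 and 4 genes were called higher, and with untreated replicates 1 and 3 left out, 0 and 1. The call of Tradd was lost without any one of the 6 libraries and under each of the 4 other scalings.

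Of 17 listed brakes outside the 8 genes, 3 were higher and 0 lower (median log2 fold change 0.03). They were Tnip2, a partner of the Tnfaip3 protein (0.81 ± 0.11 SE), Trafd1 (157, 150 and 136 after the vector, 40, 42 and 28 without it) and Usp18, which removes Isg15 from proteins (4.17 ± 0.24). Usp18 is better known as a brake on interferon signalling. With LV replicate 3 and untreated replicate 2 both left out, 1 brake was called. Tnip1 (0.79, adjusted p = 0.117), Zfp36 (0.37, 0.209) and Nlrx1 (-0.39, 0.219) did not pass.

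Commonly cited NF-kB targets, a list drawn up with earlier results of these livers known and so no independent evidence, gave 19 higher and 0 lower of 35 listed genes (median log2 fold change 1.61). Adhesion and growth factor genes among them were Icam1 (2.39 ± 0.21 SE), Vcam1 (1.89 ± 0.23) and Csf1 (2.54 ± 0.12). Chemokine genes were Cxcl1 (2.90 ± 0.31), Cxcl9 (3.40 ± 0.33) and Cxcl10 (6.95 ± 0.31), with Ccl2 listed at 0 in each untreated liver and at 30, 23 and 14 after the vector. Ccl2 met the filter on low values only through the LV livers, where it is high, so its call adds no support. Acute-phase genes were Saa1 (5.94 ± 0.45), Saa2 (6.57 ± 0.58), Saa3 (4.70 ± 0.55), Lcn2 (5.55 ± 0.99), Hp (1.61 ± 0.18) and the zinc importer Slc39a14 (1.55 ± 0.18). Among these, the LV livers differed widely for Lcn2, at 1257, 646 and 144 (limma adjusted p = 0.0441), and for Saa2, at 2475, 1888 and 559. The others were Irf1 (2.18), Irf8 (1.57), Tap1 (2.69), Psmb9 (2.17), Cd274 (4.38) and Pim1 (1.62). The remaining 16 did not pass, among them Sod2 (0.18), C3 (0.33), Bcl2l1 (-0.29) and Fth1 (-0.19). A positive log2 fold change was found for 30 of the 35, against 3517 of 8386 tested genes. The list as written held 61 genes, and Tnf, Il1b and Il6 are among those not in the table. Several of these also respond to interferon. Leaving out LV replicate 1 gave 12 called targets, LV replicate 2 gave 9 and untreated replicate 3 gave 11.

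**Figure D4:**
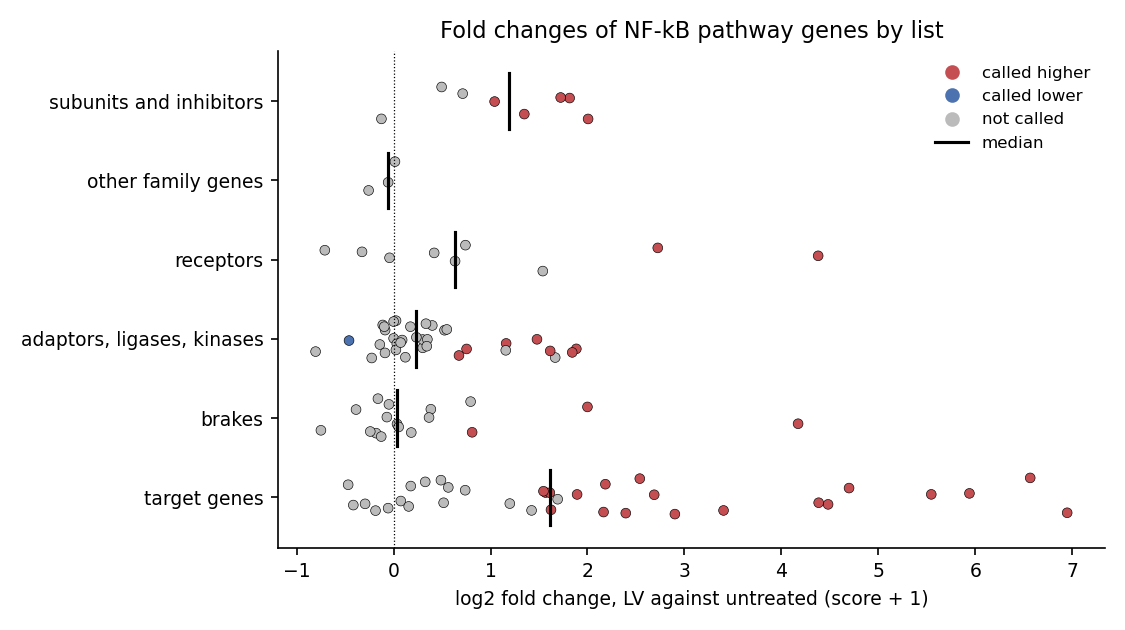
log2 fold change, LV against untreated, of each listed gene in 6 NF-kB gene lists, with called genes in red (higher) or blue (lower), others in grey and the list median as a line. The subunits and inhibitors have a median of 1.19 and the target genes of 1.61, while the adaptors, ligases and kinases centre at 0.23 and the brakes at 0.03.

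Another signal-regulated transcription factor family is given side by side, and the difference between families was not tested. Of 8 listed interferon regulatory factors, 4 were higher (Irf1, Irf7, Irf8 and Irf9; median log2 fold change 1.14). That count was 2 when any of 4 libraries was left out (replicates 1 and 2 of LV, replicates 1 and 3 of the untreated group). The largest log2 fold change there, 3.19 for Irf7, exceeded the 2.01 of Nfkb2.

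The samples are whole liver. A change in the number of cells of a type, up or down, cannot be told apart from a change in RNA per cell. Of 9 hepatocyte markers all were listed and 0 passed in limma (1 higher and 1 lower at an unadjusted p under 0.05). Their summed score was 75439 to 90676 in LV and 80717 to 110378 in untreated livers. The 9 listed of 10 Kupffer cell markers, of which 0 passed (1 lower at an unadjusted p under 0.05), summed to 127 to 300 and 239 to 359. The 9 sinusoidal endothelial markers, of which 0 passed (1 higher and 1 lower at an unadjusted p under 0.05), summed to 79 to 149 and 162 to 184, with no overlap. Of all 8386 tested genes, 772 were higher and 866 lower at an unadjusted limma p under 0.05. Median log2 fold changes were -0.20 for the hepatocyte, -0.62 for the Kupffer cell and -0.48 for the endothelial markers, against -0.07 over all tested genes. They were positive for 3, 1 and 2 of the 9 markers of each list. Of 7 monocyte markers, 2 were listed, Lyz2 and Plac8, with sums of 88 to 145 and 57 to 74, and no overlap for either gene. Plac8 was called higher, at 42, 44 and 22 in LV against 10, 7 and 8 in untreated livers (log2 fold change 1.94, limma adjusted p = 0.0287), and Lyz2 did not pass (0.60, adjusted p = 0.174). None of the 7 neutrophil, 10 T and NK cell or 5 B cell markers is in the table. The part of these cell types in the changes of the NF-kB genes was not tested.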

How the data were processed

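RNA of whole liver was sequenced on an Illumina instrument in 3 LV and 3 untreated mice. The submitters' processing notes name mm9 as the genome build. The sources used here do not give the aligner, annotation or counting method. The deposited score is whole-numbered; no label names its unit. Among genes with means of 2 to 5, replicate variance over mean was 0.236 (LV) and 0.218 (untreated), below the 1 of counted reads, and library sums were 497295 to 526009, so the score was read as scaled and rounded by the authors, and depth is unknown. Levels of different genes are comparable only if that scaling includes transcript length.

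Each of the 6 columns matched 1 sample's description. Genes with a score of at least 1 in at least 3 libraries (8386 of 8390) were fitted by group as log2(score + 1) in limma (version 3.58.1; R 4.3.3) using a variance trend on intensity, no block, two-sided p-values and Benjamini-Hochberg adjustment over all genes. The fit and the motif search were tested on simulated data. The fit recovered 67.2% of genes given a log2 fold change of 1, 67.1% at -1 and 100% at 2. Smaller fold changes, like those of Rela and Nfkbib, were not simulated. The genes and lists were chosen with earlier results of these data known. Of 172 list entries, 113 were found, 5 by another symbol in a RefSeq gene table. Named genes were the 9 of the rule, listed family genes, called genes and the 6 smallest p of each list, and the 3 nearest patterns of each called gene; some are left out for length, and 1 list is not reported here. Promoter sequences are from RefSeq, GRCm38, matched by symbol. Protein sequences were not used here. Alternatives comprised single libraries left out, a replicate block, other pseudocounts, filters, scalings, variance models and thresholds.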

Additional observations from a re-analysis of the deposited data

How the results depend on the processing

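The log2 fold changes of the 8 genes kept their sign under every alternative run. Of these genes, 5 were called higher in the fit as reported; 1 to 4 were called with single libraries left out, 1 with limma treat against a fold of 1.5, 2 at an adjusted p under 0.01 and 1 without both LV replicate 3 and untreated replicate 2. With scaling by the median of ratios 7 were called, and with the other scalings, a pseudocount of 0.1, no filter or no intensity trend 5 were called. With genes under a mean of 5 left out, Tnfaip3 was not tested, and 5 of the other 7 were called, Nfkbib among them. Over all genes, 315 were higher and 73 lower. Single libraries left out gave 119 to 313 higher and 10 to 116 lower, the stricter threshold 156 and 19, treat 136 and 0, and leaving out both libraries 306 and 136. Correlations of same-numbered libraries' deviations from their group means were 0.278, -0.47 and -0.337. LV replicate 1 was most like untreated replicate 1, LV replicate 2 most like untreated replicate 1 and LV replicate 3 most like untreated replicate 2. So few correlations cannot decide whether the numbers pair the livers. With a replicate block 145 genes were higher and 11 lower, and 4 of the 8 genes were called, Nfkbiz not (adjusted p = 0.0785). The share of promoter windows with the consensus was 4.51%, and 1.63% with the tighter form. Depth is unknown, and rounding limits genes with scores near 1.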

Other observations

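Among tested genes with an entry in the RefSeq promoter table, the kappaB consensus was found for 28 of 217 genes called higher (12.9%), for 350 of 5613 genes not called (6.24%) and for 6 of 28 listed NF-kB targets (21.4%). These shares were not tested, and genes with several annotated starts have more windows in which to hold a match. Among the 6 genes of the group with an entry, Nfkb2, Tnfaip3 and Bcl3 were called higher and hold the consensus. Of those that did not pass the test, Nfkbia holds it and Rela and Nfkbib do not.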
